A study of Mus musculus with 64 samples.

Results

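The cytosolic ribosomal protein genes were followed in RNA-seq of mice whose Myc gene was inactivated throughout the body, and of wild-type mice. Genes were taken by symbol: Rpl or Rps followed by a number, with the accepted letter endings, plus Rplp0, Rplp1, Rplp2 and Rpsa, without pseudogenes and without the Rps6k kinases. Of 36332 gene IDs in the table, 84 matched, and 81 had a mean above 1 CPM in at least 1 tissue. The other 3 were Rpl10l, Rpl32l and Rpl39l, whose highest tissue means were 0.0545, 0.0251 and 0.119 CPM. The 81 genes comprise 76 core genes, 46 of the large subunit and 30 of the small, and 5 paralogues (Rpl3l, Rpl7l1, Rpl22l1, Rpl36al and Rps27l) that are described apart.

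The 64 libraries come from 3 tissues (liver, skeletal muscle and omental adipose tissue) at ages of 5 or 20 months. KO mice carried a tamoxifen-activated Cre (cre/ERT2) at the Gt(ROSA)26Sor locus and the floxed Myctm2Fwa allele, on a cross of lines with B6 and 129 names, and WT mice are labelled C57/B6. Every mouse, WT included, is labelled as having had 5 injections of 75 mg/kg tamoxifen from weaning at 15 g or more, so tamoxifen is common to all groups, while Cre, the floxed allele and the strain background differ together between KO and WT and cannot be told apart. Each group held 5 libraries at the older age and 6 at the younger, except KO muscle at 5 months, which held 4. Libraries are named by the labels' codes, in which W or K gives the genotype, F, L or S the tissue, and 5 or 18 the age group that the labels give as 5 or 20 months. The labels do not say outright that each came from a separate animal, so p-values measure the spread between these libraries.

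Ribosomal proteins join ribosomal RNA in the nucleolus to form the large and small subunits of the ribosome, which are exported and do the cell's protein synthesis. Their mRNAs are among the most abundant short messages of any cell. They are made from promoters whose transcripts begin in a run of pyrimidines, the 5′ terminal oligopyrimidine (5′TOP) tract, through which mTOR and Larp1 tie their translation to growth signals. Myc is a transcription factor known for activating ribosome production, ribosomal protein genes included. It is the gene that the mutation removes.

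The 5′ starts of members that the results below turn on are shown because the pyrimidine tract is the feature these genes share. They come from RefSeq (GRCm38.p6), which gave a promoter for 61 of the 81 genes. Each line runs 5′ to 3′ on the gene's own strand from 40 bases before the annotated start to 20 bases from it, and capitals mark the longest run of C and T within 20 bases of the start, or of equal runs the one nearest the start.
Rpl12, chr2:32961672-32961731 (+): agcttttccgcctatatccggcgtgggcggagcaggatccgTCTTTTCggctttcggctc
Rpl38, chr11:114668540-114668599 (+): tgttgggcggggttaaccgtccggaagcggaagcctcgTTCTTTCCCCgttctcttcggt
Rps21, chr2:180257339-180257398 (+): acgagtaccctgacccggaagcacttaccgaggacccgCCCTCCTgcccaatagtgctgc
Rps28, chr17:33824543-33824602 (-): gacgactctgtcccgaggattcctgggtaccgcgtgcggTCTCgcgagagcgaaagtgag
Rps6, chr4:86857348-86857407 (-): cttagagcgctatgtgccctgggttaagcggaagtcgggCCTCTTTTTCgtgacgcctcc
Rpl3l, chr17:24727786-24727845 (+): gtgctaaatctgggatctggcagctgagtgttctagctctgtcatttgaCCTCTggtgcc
Rpl38 and Rps6 held runs of 10 pyrimidines and Rps21 a run of 7 that span the annotated start, and Rpl12 a run of 7 from base 2. The longest run of Rps28 had 4, also across the start, and that of the muscle paralogue Rpl3l had 5 and began at base 10. A run of at least 8 was found in 28 of 56 core genes with a promoter, 50%, and in 18.4% of all 27025 genes in the RefSeq table. The E-box CACGTG, which reads the same on both strands and is bound by Myc and Max, was in the 300 bases around the start of 6 of 56 core genes (10.7%) and of 8.09% of all genes. The ETS factor core CCGGAAG, searched on both strands, was in 23 of 56 (41.1%) and in 9.93% of all genes. TATAAA was in 6 of 56 (10.7%) and in 15.7% of all genes. These are matches of letters and not binding sites.

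Depth was 15449400 to 28500600 reads on genes per library, to the nearest 100. Values are the deposited normalised counts, headed CPM, although their sums per library ran from 529300 to 1640200. The Myc level was lower in KO than in WT libraries in each tissue and age by its median. In liver at 5 months it was 1.16 to 4.04 CPM in KO and 5.46 to 33.7 CPM in WT, with no overlap, and limma gave a log2 difference of -2.38 (SE 0.30, adjusted p = 0.00093, Benjamini-Hochberg over all genes tested). In adipose tissue at 5 months its log2 difference was -1.52 (adjusted p = 0.017, SE 0.25), and the ranges of 2.87 to 10.5 CPM in KO and 11.2 to 22.8 CPM in WT did not overlap. In muscle at 5 months the ranges overlapped, with 5.00 to 17.1 CPM in KO and 6.15 to 81.3 CPM in WT, and the difference did not pass. At 20 months no tissue's Myc difference passed (log2 -0.63, -1.16 and -0.49 in adipose tissue, liver and muscle). With age Myc fell in WT liver by 1.40 (SE 0.32) and in WT muscle by 1.41 (SE 0.49). Each tissue carried its own markers: summed over 5 genes each, adipocyte markers were 6404 to 24719 CPM in adipose tissue, hepatocyte markers 102126 to 209823 CPM in liver and skeletal muscle markers 117246 to 173162 CPM in muscle. Hepatocyte markers were also found in adipose tissue, at 478 to 4881 CPM at 5 months and 108 to 1381 CPM at 20 months. In 4 of the 12 adipose libraries at 5 months, 1 WT and 3 KO, epididymis markers reached 128 to 779 CPM, and they were at most 0.715 CPM in the other 18 adipose libraries. The WT muscle library W5S5299, also at 5 months, held them at 20.2 CPM. Xist marked 2 libraries of each 5-month group and none at 20 months.

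Of all reads on genes, the 76 core genes held 1.82 to 6.39% in adipose tissue (median 2.62%), 1.06 to 2.09% in liver (median 1.36%) and 1.0 to 1.91% in muscle (median 1.48%). Most of the spread in adipose tissue lay between libraries of the same group at 5 months. The summed level was 14263 to 44312 CPM (median 23933) in WT and 12032 to 48083 CPM (median 21766) in KO adipose tissue at 5 months, a ratio of highest to lowest of 3.11 and 3.996. At 20 months the ratio was 1.20 in WT and 1.84 in KO.

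**Figure D1:**
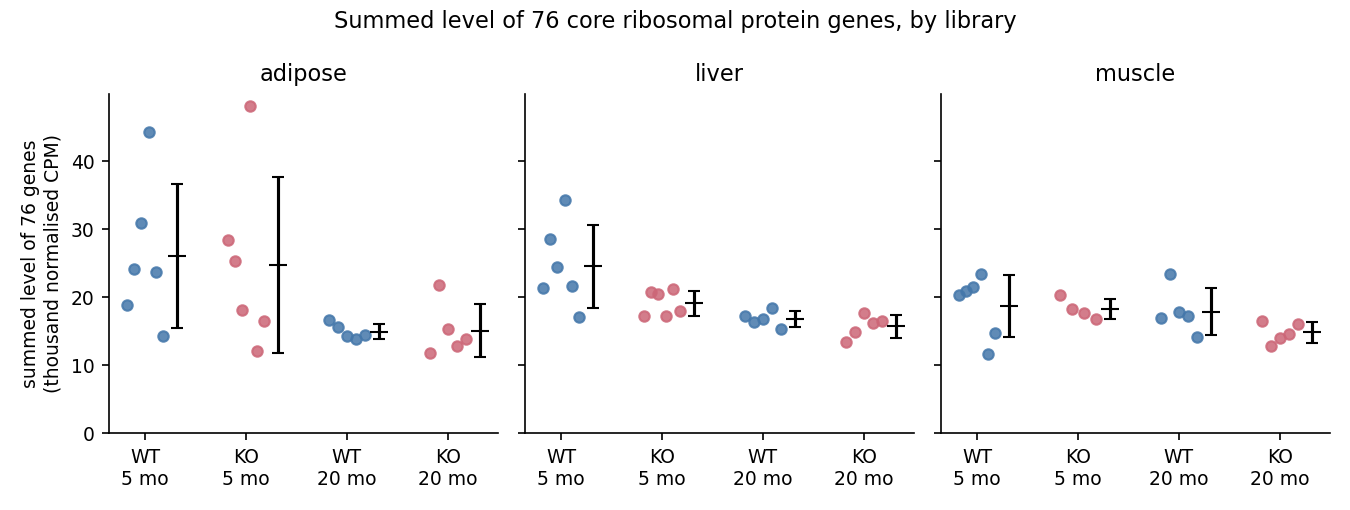
Summed level of the 76 core genes in normalised CPM (axis in units of 1000 CPM), 1 point per library, by genotype and age in each tissue; the black mark and bar beside each group give the mean and SD. The 5-month adipose groups spread from 12032 to 48083 CPM, and the 20-month groups of liver sit low and close together.

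In many groups 1 library was the highest or lowest for most core genes. In WT adipose tissue at 5 months, library W5F5042 was the highest of 6 for 76 of 76 genes, and W5F5299 the lowest for 74 of 76. In liver, W5L5042 was the highest of its group for 66 genes and W5L5299 the lowest for 70. In muscle, W5S5042 was the highest for 66 genes and W5S5277 the lowest for 74. Among KO libraries, K5F5118 was the highest in adipose tissue for 76 genes, and K5S5118 the lowest in muscle for 61. Some other groups were similarly uniform. K18F27 was the highest in KO adipose tissue at 20 months for 76 genes, and K5S4284 in KO muscle at 5 months for 72. The order was most mixed in KO liver at 5 months. There the library with the highest sum led for 35 genes and that with the lowest sum was lowest for 40. The libraries W5F5042, W5L5042, W5S5042, K5F5118 and K5S5118 are among those with Xist, and K18F27 and K5S4284 are not. The 20-month muscle WT library W18S42, the highest of its group for 76 genes, also held hepatocyte markers at 2775 CPM, where the median of its group was 4.41 CPM, and the part of that material in its level was not tested.

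Members differed widely in level. In WT liver at 5 months, means ran from 26.2 CPM for Rps6 to 927 CPM for Rps2, with a median gene at 281 CPM. The acidic stalk protein Rplp0 and the laminin receptor Rpsa, a small-subunit protein, were among the 5 most abundant core genes by CPM in adipose tissue and liver and among the 4 most abundant in muscle. Divided by annotated mRNA length, Rpl41, which encodes the shortest ribosomal protein, led in adipose tissue of WT mice at 5 months at 1323 CPM per kb. In the same mice Rpl41 (966 CPM per kb) and Rps2 (929) were close in liver, as were Rps2 (790) and Rplp1 (787) in muscle. The low level of Rps6, the target of the S6 kinases, is uncertain. A transcribed copy, Rps6-ps4, is annotated with 750 bases that are 100% identical to the Rps6 mRNA, and it held 92.1 to 98.0% of the 2 genes' summed level in every library. In WT liver at 5 months Rps6-ps4 had a mean of 537 CPM. Many other members have processed copies in the mouse genome, and how reads that fit several places were counted is not given in the sources used here.

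Between KO and WT, a single core gene passed in the 3 tissues and 2 ages, Rpl12 in liver at 5 months. The 76 core genes had a median log2 difference of -0.31 between KO and WT liver at 5 months, 74 of them were lower, and 44 had an unadjusted p under 0.05, as did 6.94% of all genes. The median over all 12924 genes tested was 0.01, and 47.6% of them were lower. The large and small subunits did alike, with medians of -0.30 and -0.32. Rpl12 was thus 1 called of 76, where 0.0387% of all genes were called lower. Of 2 T cell markers tested in liver 1 was called higher in KO, with summed levels of 3.91 to 8.16 CPM against 1.61 to 4.50 CPM for the list, Trac at 0, and its part in the result was not tested; no other marker list had a call here. Without W5L5042 the median was -0.21 and no core gene was called. The fit scaled to equal library totals gave a median of -0.25 and no call.

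Rpl12 is a protein of the large subunit at the base of the stalk where translation factors bind. Its gene lies on chromosome 2 (GRCm38, 32961712 to 32964045). At 5 months its lowest, median and highest liver levels were 159, 238 and 304 CPM in WT and 123, 142 and 165 CPM in KO. The groups overlapped through the lowest WT library, W5L5299, which lay below the 2 highest KO libraries. Rpl12 was 0.62 times the WT level (log2 difference -0.69, SE 0.13, adjusted p = 0.0392). At 20 months the liver levels were 170, 176, 201, 221 and 223 CPM in WT and 115, 128, 129, 130 and 140 CPM in KO. Every KO library was below every WT library at that age, and the log2 difference was -0.62 (SE 0.14, adjusted p = 0.241), which did not pass. The call at 5 months was lost in 9 of 12 fits that left out 1 library. In adipose tissue Rpl12 differed by -0.25 (SE 0.27, adjusted p = 0.766) and in muscle by -0.14 (SE 0.16) at 5 months.

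**Figure D2:**
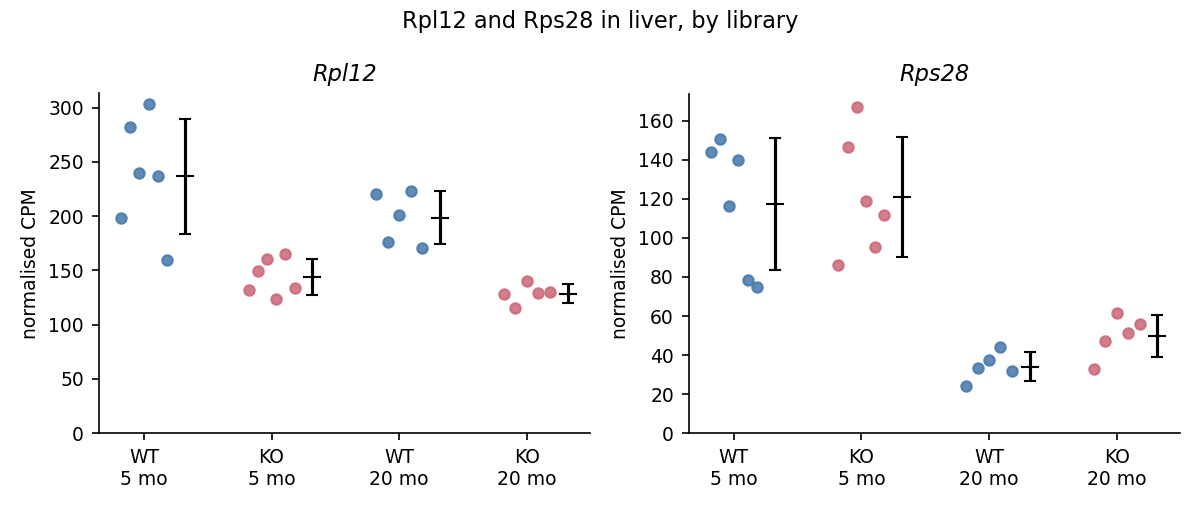
Normalised CPM of Rpl12 (left) and Rps28 (right) in every liver library, by genotype and age, with the mean and SD of each group beside the points. Rpl12 is lower in KO libraries at both ages, and Rps28 is lower at 20 months in both genotypes.

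Other core genes in liver at 5 months gave the same direction without passing. Rplp0 was 593, 701 and 979 CPM (lowest, median, highest) in WT and 486, 537 and 669 CPM in KO, a log2 difference of -0.41 (SE 0.11, adjusted p = 0.255). Rpsa differed by -0.53 (SE 0.13, adjusted p = 0.221), and Rpl5 and Rpl11, which with the 5S RNA restrain Mdm2, by -0.30 (SE 0.10) and -0.21 (SE 0.17). Rpl4, a core protein of the exit tunnel, was the only core gene with all KO below all WT libraries, at 524 to 598 against 599 to 912 CPM, where 0.0619% of all genes were separate in that direction; it is named here after its values were seen. Rps28 and Rps29, whose values matter for ageing, differed by 0.06 (SE 0.20) and 0.00 (SE 0.23).

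At 20 months the liver difference between genotypes had a median of -0.06, with 47 of 76 genes lower and none called, where 0.0232% of all genes were called in either direction. By unadjusted p under 0.05 there were 13 core genes and 5.8% of all genes, and edgeR called 0. In 11 core genes, Rpl12, Rpl3, Rplp0 and Rpsa among them, every KO library was below every WT library, which held for 1.01% of all genes. Rpl3, a large-subunit protein that reaches towards the peptidyl transferase centre, differed by -0.49 (SE 0.19, adjusted p = 0.773). At the other end Rps28 and Rps29 were 0.53 (SE 0.22) and 0.55 (SE 0.25) higher in KO liver, neither called. The KO effect at 20 months minus that at 5 months had a median of 0.25, with 74 of 76 genes positive, and none was called (0% of all genes called), with 8 core genes and 3.92% of all genes at an unadjusted p under 0.05 and 0 calls by edgeR.

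In adipose tissue the KO and WT libraries overlapped for every core gene at both ages, and separation was rare in all genes. At 5 months 0.098% of all genes were separate with KO above and 0.203% with KO below, and at 20 months 0.644% in each direction. The median difference was -0.15 at 5 months, with 64 of 76 lower, against -0.04 over all 14286 genes, and -0.01 at 20 months. No core gene was called at 5 months (0.105% of all genes called) or at 20 months (0% called). None had an unadjusted p under 0.05 by limma, where 11.8% of all genes did at 5 and 2.25% at 20 months. By edgeR the count of calls was also 0. The smallest p at 5 months belonged to Rpl11, with a log2 difference of -0.37 (SE 0.25, adjusted p = 0.579), and at 20 months to Rpl10, a late-joining protein of the subunit interface, at 0.13 (SE 0.30). The interaction was called for none (0% of all genes), with a median of 0.15. Without W5F5042 the 5-month median was 0.01, and without the epididymis libraries 0.02, so its sign rests on few libraries. The summed level spread 3.11-fold in WT and 3.996-fold in KO within the 5-month groups, and how small a difference could be detected was not tested.

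In muscle the median difference was 0.03 at 5 months, where 46 of 76 genes were higher and none was called (0% of all genes), and without W5S5277 it was -0.12. At 20 months it was -0.26, and 75 of 76 genes were lower in KO, but none was called (0.0302% of all genes called) and 2 had an unadjusted p under 0.05, against 13.8% of all genes. Rpl3 was the gene that was not lower, at 0.15 (SE 0.21). Rps26 had the smallest p, with a log2 difference of -0.32 (SE 0.11, adjusted p = 0.295). Without W18S42, the library with hepatocyte markers, the median was -0.15. The interaction had a median of -0.27 with none called (0% of all genes). No core gene had an unadjusted p under 0.05 there, where 3.31% of all genes did. By edgeR 0 core genes were called in each of these 3 comparisons. The difference at 20 months was alike in other short messages. Other genes with mRNAs up to 600 nt had a median of -0.30 (118 genes) and the 22 core genes of that length -0.29. The 42 short messages for subunits of oxidative phosphorylation had -0.37, while the median of all 13237 genes was -0.03. Longer core genes lay below other genes of their length. From 1000 to 2000 nt the medians were -0.26 for 19 core genes and -0.11 for others. Over 2000 nt they were -0.23 for 4 core genes and 0.01 for others.

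With age, every called core gene was lower. Liver of WT mice had the most calls: 43 of 76 core genes were lower at 20 than at 5 months and none was higher, where 4.36% of all 12924 genes were called lower. Called genes belonged to both subunits, 27 to the large and 16 to the small. The median log2 difference was -0.51, with 75 of 76 genes lower, against -0.01 over all genes. In bulk tissue, fewer cells of a type with much of an mRNA and less of that mRNA per cell cannot be told apart. Scaled to equal totals, the median of all genes shifted to 0.17, and that of the core genes to -0.29 with 24 called. With sex as a covariate the core genes' median was -0.44 with 32 called. In those 2 fits 10.6% and 6.41% of all genes were called in either direction. Macrophage markers were also lower in WT liver at 20 months, summing to 98.2 to 155 CPM against 131 to 275 CPM at 5 months (2 of 5 called lower). Of 2 adipocyte and 2 T cell markers tested, 1 each was called lower, and 1 of 5 B and plasma cell markers was called higher. The part of these cell types in the liver result was not tested.

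The largest falls were in Rps29 and Rps28, small-subunit proteins with mRNAs of 390 and 392 nt. Rps28 (chromosome 17, 33823036 to 33824562) was 75.0, 128 and 151 CPM (lowest, median, highest) in WT liver at 5 months and 24, 31.7, 33.4, 37.5 and 44.2 CPM at 20 months. Every older library was below every younger one, at 0.30 times the level (log2 difference -1.72, SE 0.21, adjusted p = 9.13e-05 by limma). Rps29 (chromosome 12, 69157722 to 69159186) went from 80.3, 134 and 231 CPM to 25.4, 32.6, 37.1, 41.4 and 45.5 CPM, again without overlap (-1.83, SE 0.24, adjusted p = 0.000172). Among the genes of the large subunit, Rpl38, a surface protein known for its part in the translation of Hox mRNAs, was 80.5, 98.3 and 166 CPM at 5 months. At 20 months it was 34.0, 40.3, 42.1, 47.0 and 54.0 CPM, below all the younger libraries (-1.27, SE 0.18, adjusted p = 0.000316). In all, 25 core genes had every old library below every young one, as did 2.79% of all genes.

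The stalk proteins Rplp0, Rplp1 and Rplp2, which recruit elongation factors, all fell in WT liver, by 0.49 (SE 0.12), 0.75 (SE 0.19) and 1.05 (SE 0.21) on the log2 scale. Of the remaining genes followed by name, Rpl10, Rpl11 and Rpl22 fell by 0.48, 0.64 and 0.44, calls that were lost in 7, 6 and 9 of 11 fits that left out 1 library. Rpl3, Rpl5, Rps19 and Rpsa did not pass, with log2 differences of -0.04 (SE 0.18), -0.26 (SE 0.11), -0.46 (SE 0.19) and -0.34 (SE 0.14). Rps6 was the only core gene that was not lower, at 0.06 (SE 0.16), with the uncertainty given above.

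In KO liver 6 core genes fell with age: Rps29, Rps28, Rpl38, Rpl39, Rpl30 and Rps27, where 1.31% of all genes were called lower. All 6 were also among the 43 called in WT liver, of which they are 14.0%. Rps28 was 86.1, 115 and 167 CPM at 5 months and 33.0, 47.4, 51.1, 56.0 and 61.4 CPM at 20 months, without overlap (-1.26, SE 0.21, adjusted p = 0.00261). The core genes' median was -0.28 with 74 of 76 lower, and 33 had an unadjusted p under 0.05, as did 19.2% of all genes. Macrophage markers summed to 193 to 385 CPM at 5 and 131 to 179 CPM at 20 months in KO liver, with 3 of 5 called lower, and their part was not tested. That WT liver had 43 calls and KO liver 6 does not show that ageing differed between them: the test of that difference is the interaction, which called none. Scaled to equal totals, the KO median was -0.08, with 55 of 76 lower and 2 called, against 0.15 for all genes. Of all genes, 4.81% were called in either direction in that fit. The comparisons in WT liver and between genotypes at 5 months share the 6 WT libraries, W5L5042 included.

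**Figure D3:**
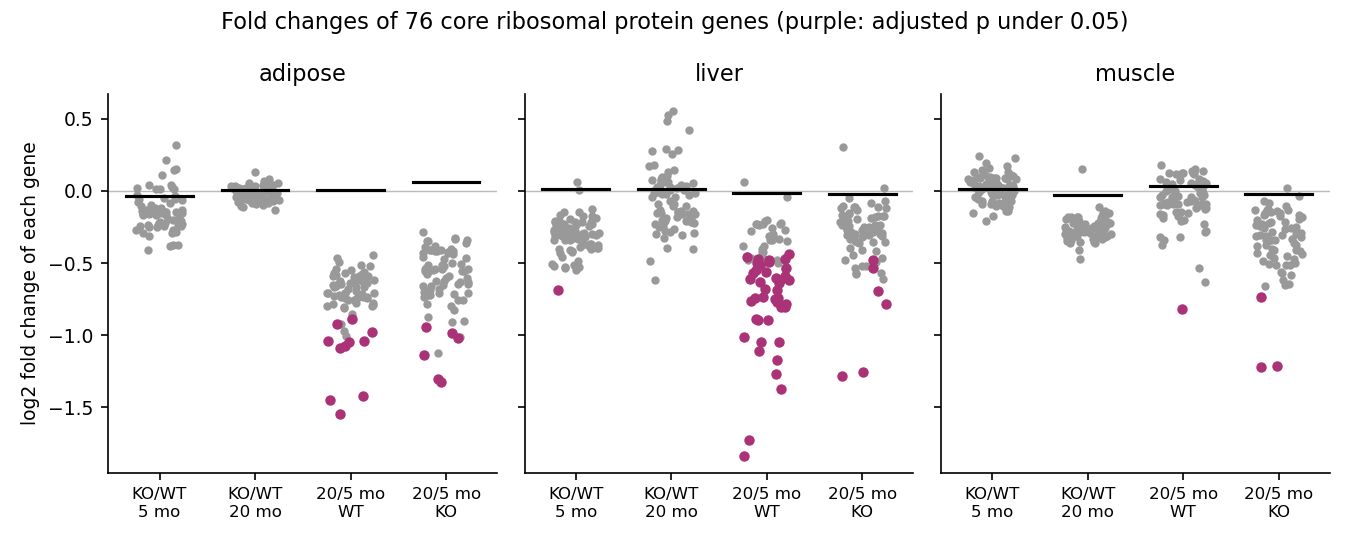
Log2 fold change of each of the 76 core genes (1 point each) in 4 comparisons per tissue, with purple points for genes with an adjusted p under 0.05 and a black line at the median of all genes tested. The points of both ageing comparisons in adipose tissue lie wholly below the line, and the genotype comparisons hold 1 purple point, Rpl12 in liver.

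In adipose tissue, ageing gave lower levels for 76 of 76 core genes in both genotypes. The median log2 difference was -0.71 in WT and -0.57 in KO, against 0.01 and 0.06 over all genes. In WT, 11 genes fell (Rps29, Rpl38, Rps28, Rpl39, Rps21, Rpl35a, Rpl36, Rpl37, Rpl36a, Rps23 and Rpl30), where 3.36% of all genes were called lower, and 56 had an unadjusted p under 0.05, as did 30.4% of all genes. In KO, 6 fell (Rps29, Rps27, Rpl37, Rps26, Rps21 and Rps23), where 3.75% of all genes were called lower. All of the 11 and all of the 6 were among the 43 called in WT liver, and 4 genes were called in both genotypes.

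Rps29 in WT adipose tissue was 74.5, 194 and 310 CPM (lowest, median, highest) at 5 months and 55.0, 59.0, 59.4, 62.4 and 73.4 CPM at 20 months. The old libraries were all lower, by a narrow gap to the lowest young one, W5F5299 (-1.55, SE 0.38, adjusted p = 0.0141). In KO it was 47.2, 163 and 393 CPM at 5 months and 45.6, 49.8, 59.3, 63.4 and 94.0 CPM at 20 months, so the groups overlapped (-1.33, SE 0.38, adjusted p = 0.0268). Rpl38 in WT was 65.4, 149 and 268 CPM and then 46.3, 48.7, 48.8, 49.6 and 63.4 CPM (-1.45, SE 0.37, adjusted p = 0.0166).

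Several features of the adipose libraries moved with age as well. The 4 libraries with epididymis transcripts are all young. Without them 70 core genes were called in WT and 48 in KO, with medians of -0.86 and -0.92, while the share of all genes called in either direction was 24.9% and 18.3%. Xist was found only at 5 months, in W5F5042 and K5F5118 among others. With sex as a covariate 2 core genes were called in WT and 2 in KO, with medians of -0.44 and -0.33. In those fits 6.08% and 13.1% of all genes were called in either direction. Leaving out W5F5042 gave 2 calls and a median of -0.53 in WT, and leaving out K5F5118 gave 4 calls and a median of -0.37 in KO. The share of all genes called in these 2 fits is not given here. Hepatocyte markers reached higher sums in the young libraries (above), but the 5 markers did not move together. In each genotype 1 of the 5 was called lower with age, and their median log2 difference was -0.23 in WT and 1.30 in KO. B and plasma cell markers were higher in the old ones, with 5 of 6 called higher in WT and sums of 26.9 to 114 CPM at 5 and 86.2 to 373 CPM at 20 months. T cell markers in WT summed to 4.49 to 12.4 CPM at 5 and 13.8 to 50.01 CPM at 20 months, with 4 of 5 tested called higher and Trac at 0 in all. In KO, 3 of 6 B and plasma cell markers were called higher. Mesothelium had 1 call, lower in WT, and the adipocyte, macrophage and pancreas lists had 1 call each, higher in KO. The part of these cells in the result was not tested.

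Muscle had the fewest calls. In WT, Rps28 was the only core gene to fall (1 of 76), where 7.68% of all genes were called lower, and the median difference was -0.04 against 0.03 over all genes. Rps28 was 33.0, 111 and 134 CPM at 5 months and 39.7, 40.6, 44.8, 54.2 and 56.2 CPM at 20 months (-0.82, SE 0.28, adjusted p = 0.048), a call lost in 8 of 11 fits that left out 1 library. The lowest young library, W5S5277, was below all the old ones. Without it 8 core genes were called and the median was -0.19, and the share of all genes called in that fit is not given here. With all libraries, 2463 of 13237 genes were called in either direction. With sex as a covariate or equal totals no core gene was called and the medians were 0.02 and 0.03. In those fits 14.9% and 19.9% of all genes were called in either direction. In KO muscle, Rps29, Rps28 and Rps21 fell (3 of 76), where 1.96% of all genes were called lower. Rps28 was 73.2, 88.9, 92.4 and 107 CPM and then 28, 34.6, 38.7, 43.8 and 48 CPM (-1.22, SE 0.31, adjusted p = 0.0287). Rps21, on chromosome 2 at 180257379 to 180258444, was 114, 126, 135 and 141 CPM at 5 months and 63.8, 70.5, 74.5, 87.7 and 90.5 CPM at 20 months (-0.74, SE 0.18, adjusted p = 0.0249). For 35 of the 76 genes every old KO library was below every young one, as for 6.87% of all genes, and the median was -0.31. With sex as a covariate none of the 3 was called, and the calls of Rps28 and Rps29 were lost in 6 of 9 fits that left out 1 library. Macrophage markers in WT muscle summed to 47.1 to 153 CPM at 5 and 19.8 to 89.1 CPM at 20 months, with 3 of 5 called lower. There 1 of 3 endothelium markers was also called lower, and 1 of 5 adipocyte markers higher. The part of these cell types was not tested.

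The size of the fall with age was related to the length of the mRNA. Over the 76 core genes in WT liver, Spearman's correlation between annotated length and log2 difference was 0.51, and it was 0.40 in KO liver, 0.56 and 0.43 in WT and KO adipose tissue, and 0.25 and 0.39 in muscle. These are descriptions over genes that share the same libraries. The 22 core genes of up to 600 nt had a median of -0.74 in WT liver and 17 were called (77.3%), and 4 genes over 2000 nt had a median of -0.39. In other genes the relation was positive too, and weak in KO liver and WT muscle. Over 12061 other genes in liver it was 0.28 in WT and 0.10 in KO, over 13316 others in adipose tissue 0.44 and 0.28, and over 12387 others in muscle 0.07 and 0.30. Other genes of up to 600 nt had a median of -0.39 in WT liver, with 34 of 123 called lower (27.6%), and of -0.62 in WT adipose tissue, with 18 of 132 called lower (13.6%).

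At each length the core genes still lay below other genes in the ageing comparisons of liver and adipose tissue. Between 1000 and 2000 nt, for example, the medians in WT liver were -0.45 for 19 core genes and -0.10 for 2707 others. In KO against WT liver at 5 months length behaved otherwise. The core genes' correlation with length was -0.20, and their medians were -0.30, -0.29, -0.35 and -0.32 from the shortest to the longest of 4 length ranges, while those of other genes were -0.05, -0.04, -0.02 and 0.03. No measure of RNA integrity per library was used here, and the part of RNA quality or size selection in the relation with length was not tested.

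**Figure D4:**
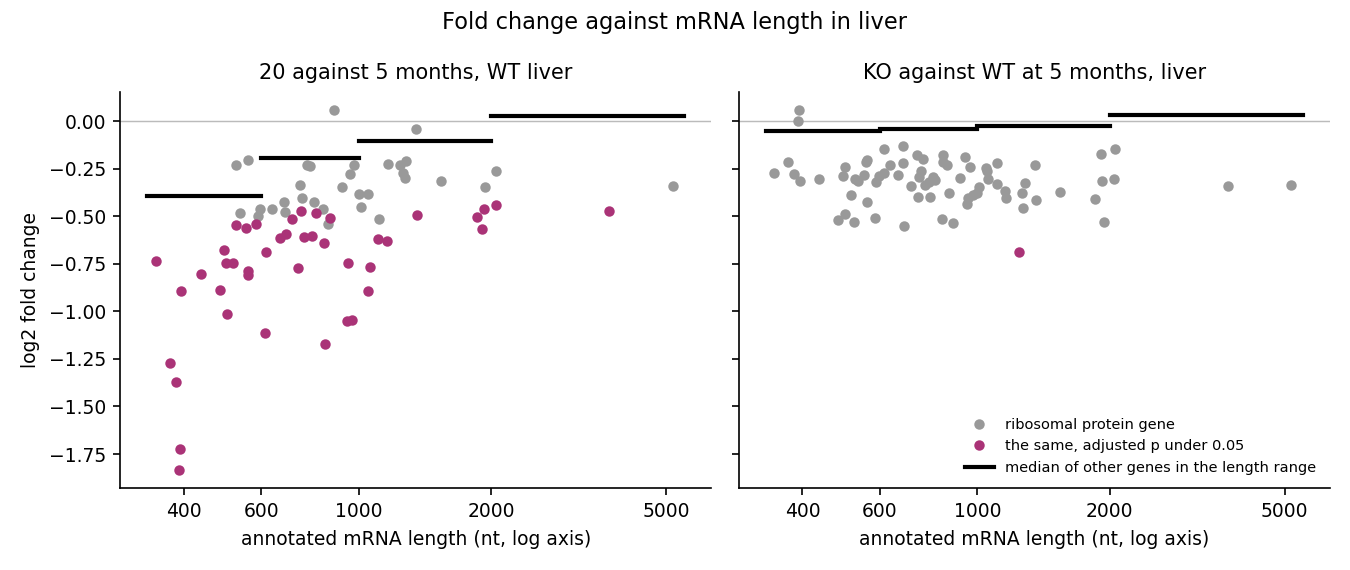
Log2 fold change against annotated mRNA length (log axis) for the 76 core genes in WT liver with age (left) and in KO against WT liver at 5 months (right), with black lines at the median of all other genes in 4 length ranges. The shortest mRNAs lie lowest on the left, and the points on the right form a level band near -0.3.

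Messages for oxidative phosphorylation gave a second look at short housekeeping mRNAs. In WT ageing 17 of 42 fell in liver and 11 of 42 in adipose tissue, with none higher. Of all genes, 4.36% and 3.36% were called lower there. The medians of the 42 genes were -0.42 and -0.76. Atp5k, a small subunit of ATP synthase, fell by 1.72 (SE 0.25) in WT liver, about as far as Rps28. In KO against WT liver at 5 months the same 42 genes had a median of -0.06 and none was called, where the core ribosomal protein genes stood at -0.31.

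Within tissues, genes of 3 related lists were called with age only. Of 21 translation factors with 5′TOP messages tested in liver, 1 fell with age in WT, where 4.36% of all genes were called lower. It was Npm1 (-0.38, SE 0.11, adjusted p = 0.0458), a nucleolar chaperone of ribosome assembly, and the list's median was -0.24. Vim, the intermediate filament gene on that list, rose by 1.04 (SE 0.29) in KO adipose tissue and fell in muscle by 0.83 in WT and 0.81 in KO. Of the list's 22 genes, 1 was called higher in KO adipose tissue, where 1497 of 14286 genes were. In muscle 2 were called lower in WT and 1 in KO, where 1017 and 260 of 13237 genes were. Of 19 genes for chaperones and assembly factors of ribosomal proteins, 5 fell in WT liver with age and none rose, against the same 4.36%. The largest fall was that of Rrs1, which helps load the 5S particle (-0.92, SE 0.17, adjusted p = 0.00214). In WT muscle 2 of the 19 rose and 2 fell, with Heatr3, an import factor for Rpl5, at 0.38 (SE 0.08) and Rrp1 at -0.45 (SE 0.09). Of all 13237 genes tested there, 1446 were called higher and 1017 lower. Among 18 regulators such as Larp1 and mTOR, none was called in liver. In adipose tissue 1 of the 18 rose in each genotype, Larp4b by 0.41 (SE 0.12) in WT and Rptor, the mTORC1 scaffold, by 0.49 (SE 0.16) in KO. Of all 14286 genes tested there, 1059 were called higher in WT and 1497 in KO. In WT muscle 3 of the 18 were called, 2 higher and 1 lower, where 2463 of 13237 genes were called in either direction. Gabpa, an ETS factor, rose by 0.48 (SE 0.12) and Tsc2, a brake on mTORC1, fell by 0.35 (SE 0.09). No gene of these 3 lists passed in a KO against WT comparison. Between tissues, 14 of the 19 assembly genes were called for liver against adipose tissue, 13 for muscle against adipose tissue and 16 for muscle against liver. Of all 14087 genes tested, 9823, 9709 and 10294 were called in these comparisons, so calls were common in genes of any kind.

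Between tissues, WT libraries at 5 months were compared, and the size of the differences and the number of calls rest on the scaling. On the deposited scale the 76 core genes differed by a median of -0.03 between liver and adipose tissue. Only 2 were called higher, Rps2 and Rpl7a (34.1% of all genes), and 2 lower, Rps12 and Rpl39 (35.7% of all genes). Muscle was lower than adipose tissue for 22 genes (38.8% of all genes called lower) and higher for none (30.2%), with a median of -0.47. Muscle was lower than liver for 21 genes (36.4%) and higher for none (36.7%), with a median of -0.40. When each library was scaled to equal totals, the median of all genes moved to -1.02 for liver against adipose tissue and -0.90 for muscle against adipose tissue. The core genes' medians then were -1.16 and -1.34, with 76 and 75 called lower, where 83.4% and 78.8% of all genes were called in either direction. Muscle against liver then had a median of -0.14, with 11 called lower and 1 higher. Of all genes, 71.9% were called in either direction there.

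Rpl3 and its paralogue Rpl3l made the sharpest contrast between tissues. Rpl3l encodes a form of the Rpl3 protein known from striated muscle. The genes lie on chromosome 15 (Rpl3, 80077781 to 80083406) and chromosome 17 (Rpl3l, 24727826 to 24736143). Their mRNAs were 74.4% identical over 1186 aligned bases, with no shared run longer than 22. In WT muscle at 5 months Rpl3l was 438, 669 and 687 CPM (lowest, median, highest) and Rpl3 49.6, 105 and 134 CPM. In the same libraries Rpl3l made up 84.6 to 90.8% of the pair's level per length. Rpl3l was at most 0.257 CPM in any liver library and Rpl3 there had a mean of 329 CPM (SD 107, n = 6) in WT at 5 months.

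Rpl3 was the core gene that differed most between muscle and each other tissue, by -2.16 against adipose tissue (SE 0.27, adjusted p = 6.93e-07) and -1.68 against liver (SE 0.27, adjusted p = 1.36e-05). Rpl3l was 8.17 (SE 0.35) higher than in adipose tissue and 9.14 (SE 0.35) higher than in liver on the log2(CPM + 1) scale, which understates ratios to values near 0. Scaled to equal totals Rpl3 differed by -3.03 and -1.41 and Rpl3l by 7.61 and 8.85. Within muscle neither gene was called between genotypes. KO Rpl3l at 5 months was 543, 567, 574 and 625 CPM, inside the WT range, a log2 difference of -0.02 (SE 0.14). At 20 months Rpl3l was 479, 512, 526, 555 and 686 CPM in WT and 412, 439, 456, 520 and 529 CPM in KO (-0.22, SE 0.14, adjusted p = 0.464). The share of Rpl3l per length stayed between 83.3 and 91.6% in all 20 muscle libraries. With age in WT, Rpl3 differed by -0.54 (SE 0.20, adjusted p = 0.070) and Rpl3l by -0.10 (SE 0.13).

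In adipose tissue Rpl3l was present in some young libraries only. It was 3.78 to 23.8 CPM in the 4 libraries with epididymis transcripts and 0 to 4.37 CPM in the other 18. Among the 18 the highest value, in W5F5277, came with skeletal muscle markers at 812 CPM. K5F5118 held these markers at 844 CPM and Rpl3l at only 0.043 CPM, so the 2 did not go together there. No old adipose library exceeded 0.089 CPM. In 2 of the 4 libraries, K5F4284 and K5F5248, muscle markers summed to only 7.69 and 10.4 CPM beside Rpl3l levels of 22.7 and 23.8 CPM.

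**Figure D5:**
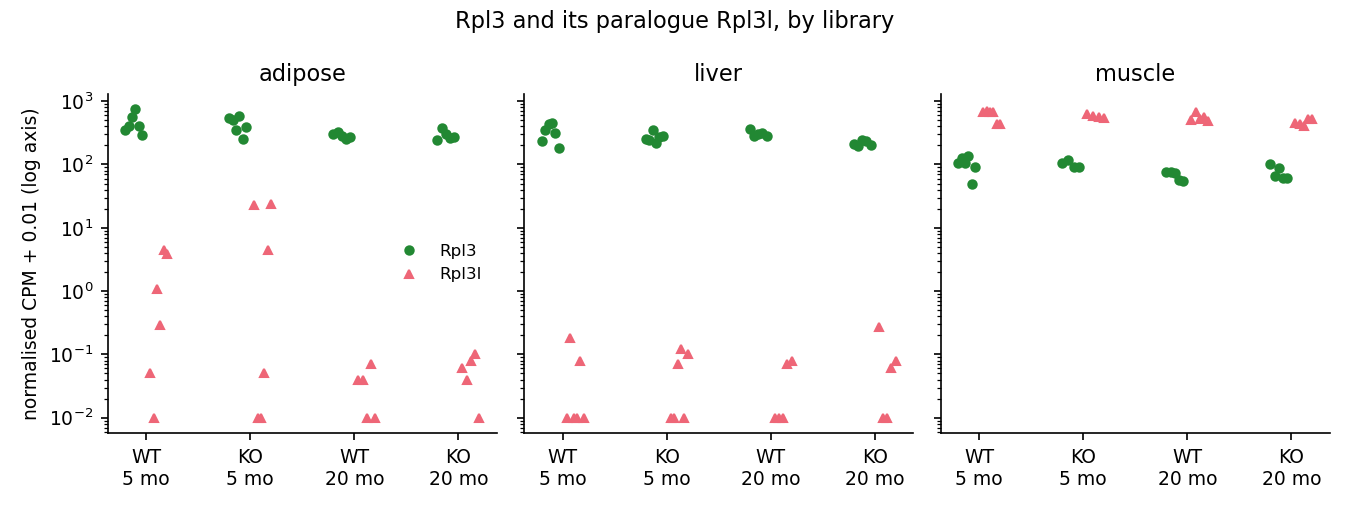
Normalised CPM + 0.01 of Rpl3 (circles) and Rpl3l (triangles) on a log axis, 1 point per library, by genotype and age in each tissue. Rpl3l lies above Rpl3 in all muscle libraries and far below it in all liver and adipose libraries.

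Of the other 4 paralogues, 3 were higher in liver than in adipose tissue on the deposited scale. Rps27l, a p53 target related to Rps27, had a mean of 170 CPM (SD 45.5, n = 6) in WT liver at 5 months, 59.7 (SD 17.1) in adipose tissue and 65.0 (SD 9.60) in muscle. It was 1.51 higher in liver than adipose tissue (SE 0.19, adjusted p = 9.56e-07) and did not differ between muscle and adipose tissue beyond the spread (0.16, SE 0.19). Its share of the Rps27 and Rps27l pair per length was 31.3 to 43.1% in liver, 10.3 to 19.0% in adipose tissue and 16.7 to 26.1% in muscle, with no overlap between liver and either other tissue. Rpl36al was 1.17 higher in liver than in adipose tissue (SE 0.21, adjusted p = 4.57e-05). Rpl7l1, a relative of Rpl7, was 1.04 higher (SE 0.14, adjusted p = 1.19e-06), with the sign turned when libraries were scaled to equal totals (-0.084). Under that scaling Rps27l (0.38) and Rpl36al (0.036) also lost the call in liver against adipose tissue.

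Rpl22l1, the partner of Rpl22, varied most within groups: 14.6 to 91.2 CPM in adipose tissue, 7.16 to 33.7 CPM in liver and 10.3 to 67.8 CPM in muscle of WT mice at 5 months, with no comparison called. Rpl22 is known to repress Rpl22l1. In KO against WT liver Rpl22l1 differed by -0.17 (SE 0.29) at 5 months. None of the paralogues was called for genotype or age in any tissue. In liver Rpl3l was too low to be tested, so that 4 of the 5 were tested there.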

How the data were processed

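Poly-A RNA libraries (strand-marking kit) were made from 64 tissue samples in 12 groups. The authors deposited 1 table of values per gene and library, headed CPM per the file headers, and treated here as normalised signal because the sums per library differ. The submitters' processing notes name the builds GRCm38.p6 and mm10; the aligner, the counting method and the handling of reads with several matches are not given in the sources used here. Values in each library were whole multiples of 1 read (100% whole, tolerance 0.01 read), so reads were recovered (median 19554800 per library, to the nearest 100) for an alternative test.

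Each tissue was fitted with limma 3.58.1 (R 4.3.3) on log2(value + 1) as 4 group means with a trended variance, for genes above 1 CPM in a number of libraries no smaller than the size of its smallest group. Fold changes are on the log2(value + 1) scale, which understates changes of low genes. P-values were adjusted by Benjamini-Hochberg over all genes tested, and genes under 0.05 were called. Tissues were compared in WT at 5 months. The tests were checked on simulated data. Alternatives were edgeR 4.0.16 on the recovered reads, libraries scaled to equal totals, a pseudocount of 0.1, no filter, sex (from Xist) as a covariate, leaving out the adipose libraries with epididymis transcripts (marker sum above 10 CPM), leaving out each library, and the code number as a block between tissues. By edgeR, genotype comparisons within a tissue called 0 to 9 of all genes, and ageing called 1706 and 2262 in WT and KO adipose tissue, 930 and 356 in liver and 2466 and 844 in muscle. Symbols, promoters and coordinates come from RefSeq (GRCm38.p6). The length of a gene is the median over its protein-coding GENCODE transcripts that carry a RefSeq mRNA accession. The mRNAs aligned for the paralogue pairs were also GENCODE transcripts.

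Named genes were a fixed set of members (Rplp0, Rplp1, Rplp2, Rpl3, Rpl5, Rpl11, Rpl10, Rpl22, Rpl38, Rps6, Rps19, Rpsa), the paralogues, the 2 called core genes with the largest rise and fall in each comparison or else the one with the smallest p, and at most 2 called genes per pathway list. Other genes were named after their values were seen: Rpl4, Rps21, Rps28 or Rps29 in further groups, and the called genes listed where they were few. The members and the lists were chosen with earlier results of these data known. Replicates were compared by chi-square on recovered reads, and none agreed within sampling noise. 1 further gene list is not reported here.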

Additional observations from a re-analysis of the deposited data

Results flagged for a closer look

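In 88 checks for a library far from the others of its group (by Dixon's ratio of the gap to the range), 7 gave one, and chance gives about 1 in 20. Groups held 4 to 6 libraries, and each of the 7 concerned 1 gene in 1 group. All 7 were the highest library of their group. K5F5118, of KO adipose tissue at 5 months, held 3: Rps28 at 274.02 CPM where the other 5 libraries had 30.7 to 107, Rpl38 at 302.42 CPM where they had 41.8 to 129, and Rps21 at 464.7 CPM where they had 110 to 233. K18F27, of KO adipose tissue at 20 months, held 2: Rpl12 at 257.24 CPM against 154.7 to 170.3 in the others, and Rpl38 at 91.61 CPM against 40.97 to 53.8. In WT adipose tissue at 20 months, W18F21 had Rpl38 at 63.36 CPM and the other 4 libraries 46.3 to 49.6. In WT liver at 20 months, W18L04 had Rps21 at 110.85 CPM and the others 62.8 to 75.8. K5F5118 and K18F27 were also the highest libraries of their groups for all 76 core genes.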

How the results depend on the processing

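Called core genes are counted here. For fits that left out a library the share of all genes called is not given, so those counts cannot be set against it. Without a filter, ageing called 1072 and 1420 of 27760 genes in WT and KO adipose tissue. In liver it called 689 and 245 of 22097 genes, and in muscle 1708 and 461 of 24041. Ageing in WT adipose tissue (11) gave 19 by edgeR, 3 without a filter, 2 with sex as a covariate, 70 without the epididymis libraries and 2 to 31 when each library was left out. In KO (6) these were 21, 2, 2, 48 and 0 to 34, and 18 at equal totals (10.7% of all genes called). In liver, KO against WT at 5 months (1) gave 0 at equal totals, 0 without a filter and 0 to 2 leaving out a library. Ageing in WT liver (43) gave 32 with sex as a covariate, 38 without a filter, 24 at equal totals and 28 to 63 leaving out a library. In KO liver (6) these were 6, 5, 2 and 2 to 7. Ageing in WT muscle (1) gave 3 by edgeR, 0 at equal totals, 0 without a filter, 0 with sex and 0 to 8 leaving out a library, and in KO (3) 1 without a filter, 0 with sex and 0 to 3. Equal totals gave 76 for liver against adipose tissue (4; 2 without a filter), 75 for muscle against adipose tissue (22) and 12 for muscle against liver (21), with 2 to 13, 17 to 50 and 13 to 31 leaving out a library. Equal totals turned Rps2 (-0.54), Rpl7a (-0.63) and Rpl7l1 (-0.084) in liver against adipose tissue. The other genotype counts and all interaction counts were 0 under every alternative run. Why the counts moved was not tested.

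Code numbers repeat across tissues at 5 months. Of 14 same-number pairs, 11 deviated together with r over 0.1 (-0.07 to 0.32), and 10 correlated best with their own number. Since 3 pairs were not over 0.1 and the labels do not say that a number marks an animal, the unblocked fit was kept. With the number as a replicate block, 6, 33 and 30 core genes were called in place of 4, 22 and 21 for liver against adipose tissue, muscle against adipose tissue and muscle against liver. Within a tissue no paired analysis was possible because groups share no numbers.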
